A study of Thermothelomyces thermophilus with 49 samples.

Results

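A group of 139 genes of the filamentous fungus Thermothelomyces thermophilus stood far above its steady-state level after cellulose replaced glucose in strains without the regulator gene clr1 or clr2, while its average over the same 4 h stayed near the steady-state level in the parental strain and without clr4. The members were chosen on their own values. Counts were divided by the library total to give CPM (counts scaled to a common total), the 2 cultures of a group were averaged, and 1 CPM was added before taking log2. The response of a gene in a strain, m, is the mean log2 level of the 4 times after the spike minus that at steady state. A gene was a member when its highest group mean was 10 CPM or more, m was 1.5 or more in both Δclr1 and Δclr2, and m was within 0.5 of 0 in both Δclr4 and the parental strain. Of 9292 genes in the count table, 7661 passed the level, 324 of these had m of 1.5 or more in both Δclr1 and Δclr2, and 139 met the rule in full. All 139 passed the filter on low counts that left 8565 genes for testing. Of the other genes among the 324, 169 had m above 0.5 in Δclr4 or the parental strain, and 16 had m below -0.5 in either.

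The strains were BS7.8 (Δku80, Δclr1), BS6.4 (Δku80, Δclr2), JK2.8 (Δku80, Δclr4) and the parental strain MJK20.3 (Δku80), so that every strain lacks ku80, a component of non-homologous end joining. The paper uses MJK20.3 as the parental strain throughout. Its supplement shows the clr2 deletion in the precursor strain from which MJK20.3 was sub-cultivated. Each deletion was studied in a single strain. Every strain was grown in 2 separate bioreactors, R1 and R2, and each culture was sampled during exponential glucose growth (ex), at the steady state of a chemostat limited by glucose (SS), and at 0.5, 1, 2 and 4 h (t1 to t4) after glucose feeding was ended and cellulose was added. This gives 48 poly(A) RNA libraries in 24 groups of 2 cultures.

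Clr1 and Clr2 are zinc cluster transcription factors, and in Neurospora crassa both are needed to switch on cellulase genes when the mycelium meets cellulose. Clr4 is a further regulator of cellulase genes. A mycelium that cannot break down cellulose has no other added carbon source in such a medium, and filamentous fungi that run out of sugar are known to draw on reserves such as glycogen, lipids and proteins. Heme enzymes such as catalases, which break down hydrogen peroxide, pyridoxal phosphate enzymes, many of which handle amino acids, and glycogen phosphorylases belong to the functions named among the members below.

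Library totals were 2567179 to 22212257 counts, lowest in Δclr2 and highest in Δclr4. The deleted genes had 0 to 20 counts (clr1), 0 to 1 (clr2) and 0 to 2 (clr4) per library in their own deletion strain, against at least 96, 5 and 361 counts per library in the other strains. GenomeScan sequenced Δclr1 and Δclr4, whose RNA had neither purification nor DNase treatment, and Microsynth sequenced Δclr2 and the parental strain, whose RNA had both. Levels of some members followed the sequencing centre. MYCTH_2314274 had 118 and 109.6 CPM at SS in Δclr1 and 117 and 98.7 in Δclr4, against 506 and 622 in Δclr2 and 612 and 509.6 in the parental strain. A strain difference across centres and the centre cannot be told apart, so strains were tested against each other only within a centre or as differences of changes over time. Each value is a share of the RNA of whole biomass, so fewer hyphae of a kind and less of an RNA per hypha cannot be told apart.

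The response built up within 1 to 2 h in both deletion strains. In Δclr1 the median difference of the 139 members to SS from t1 to t4 was 1.56, 2.40, 2.46 and 2.20 on the log2 scale, and in Δclr2 it was 1.26, 2.28, 2.47 and 2.04. In Δclr4 the same medians were 0.01, 0.37, 0.29 and -0.44, and in the parental strain 0.36, 0.45, 0.21 and -0.34. These values chose the members and are given as a description. Members took 0.705 ± 0.0674% of all counts at SS in Δclr1 and 4.13 ± 0.0723% at t2 (SD, n = 2). In Δclr2 the share was 0.641 ± 0.0491% at SS and 4.17 ± 0.116% at t2. In Δclr4 it was 0.729 ± 0.0200% at SS and 1.32 ± 0.230% at t2, and in the parental strain 0.687 ± 0.0242% and 1.24 ± 0.0848%.

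**Figure D1:**
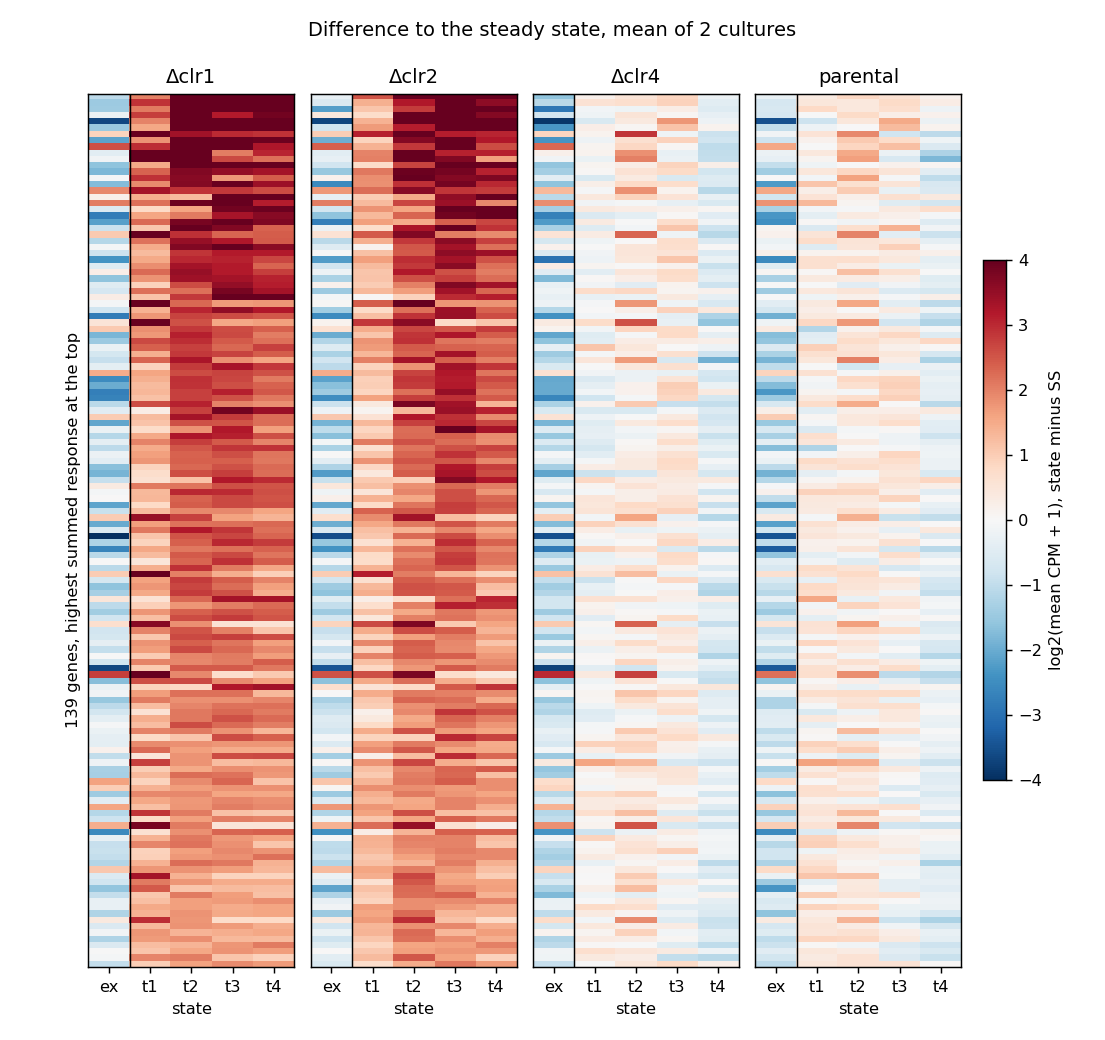
Difference of each of the 139 members (rows, highest summed m of Δclr1 and Δclr2 at the top) to its steady state, as log2(mean CPM + 1) of the state minus SS, in 4 strains; colours saturate at 4 and -4. Columns t1 to t4 are red in Δclr1 and Δclr2, darkest toward the top. They are mostly pale in Δclr4 and the parental strain, where a few rows are red at t2 only. Most rows are blue in ex in all strains.

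A flat average did not mean a flat course. In Δclr4 26 members stood 1 or more above SS on the log2 scale at some time after the spike, and 14 stood 1 or more below. In the parental strain these were 29 and 15. Among the 7661 genes that passed the level, 10.9% in Δclr4 and 11.0% in the parental strain stood that far above SS at some time, and 24.005% and 20.31% that far below. The members' counts above SS were over the share of all genes, and those below SS were under it. The rule limited m in both strains, so these counts depend on the choice of members and are a description. The highest of the 4 times was t2 for 52 members and t3 for 46 in Δclr1, and t2 for 50 and t3 for 74 in Δclr2. A response found without clr1 or clr2 alone thus describes the mean over 4 h, and not each time or each member.

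The flat average also depended on the scaling. On the CPM scale the median m of the 7661 genes was 0.08 in Δclr1, 0.14 in Δclr2, -0.25 in Δclr4 and -0.20 in the parental strain. With library sizes scaled by the trimmed mean of M-values (TMM) these medians were -0.03, -0.03, -0.05 and -0.05. On the TMM scale 52 members had m above 0.5 in Δclr4 or the parental strain, with a highest value of 0.70 in Δclr4 and 0.65 in the parental strain, and 38 had m below 1.5 in Δclr1 or Δclr2. The rule applied to TMM-scaled values gave 64 genes, of which 60 were members. Median m of the members on that scale was 2.03 in Δclr1, 1.80 in Δclr2, 0.32 in Δclr4 and 0.28 in the parental strain. The rule fixed the gap between these values, so they are no support for it.

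At the edge of the rule, MYCTH_2065222 was inside with m of 0.497 in the parental strain, and MYCTH_2301878 with m of 1.504 in Δclr2. MYCTH_2296578 and MYCTH_2297338 were outside with m of 0.503 each in the parental strain.

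The member with the highest summed m was MYCTH_2065222 (chromosome 4, 53829 to 54441 in assembly ASM22609v1), which none of the tables used here annotates. In Δclr1 it had 2.00 and 0.477 CPM at SS, 12.4 and 3.62 at 0.5 h, 86.0 and 35.6 at 1 h, 199 and 77.4 at 2 h and 176 and 76.9 at 4 h. In Δclr2 it had 0.169 and 0.359 CPM at SS, 4.33 and 8.03 at 0.5 h, 19.3 and 23.1 at 1 h, 113 and 95.4 at 2 h and 98.5 and 74.7 at 4 h. Both deletion strains climbed from near 0 to a plateau at t3 and t4, and the cultures of Δclr1 differed in level. In Δclr4 the gene stayed at 1.35 to 6.00 CPM from SS to t4, and in the parental strain at 0.202 to 2.20 CPM. MYCTH_51515, MYCTH_2305838 and MYCTH_65475 were also low at SS, at 0.508 to 5.38 CPM in the libraries of Δclr1 and Δclr2, and had their highest mean at t3 or t4 in both. Low levels were common among the members: in 44 of 139 the SS mean of the parental strain was under 10 CPM, and in 33 no group mean of the parental strain reached 10 CPM.

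MYCTH_2119667 (chromosome 4, 4601002 to 4601579) was close to 0 in ex and high at t3. It had 0.454 and 0.358 CPM in ex in Δclr1, 17.2 and 15.8 at SS and 433 and 375 at t3. In Δclr2 it had 0 and 0.557 CPM in ex, 14.7 and 16.1 at SS and 539.7 and 377 at t3. In the parental strain the values were 0.227 and 0.221, 14.5 and 11.2, and 37.6 and 39.7 CPM. The gene was thus ordered ex, SS and t3 from low to high in all these strains, with the step above SS much larger in the deletion strains.

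The members with the most reads were MYCTH_2314274, MYCTH_2314878, MYCTH_2303088, MYCTH_2306101 and MYCTH_2095534. MYCTH_2314878 (chromosome 2, 4718902 to 4720185) had 353 and 281 CPM at SS and 1509 and 1609.7 at t4 in Δclr1, and 440.2 and 517 CPM at SS and 1962 and 2045 at t4 in Δclr2. In Δclr4 it had 248 and 257 CPM at SS and 274 and 216 at t4, and in the parental strain 556 and 598 at SS and 521 and 645 at t4. It remained high at t4 in both deletion strains, where the cultures of Δclr4 and the parental strain were back at SS levels.

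Of the 139 members, 32 are in a list used here, and 107 are in none. The lists are the study's classes of carbohydrate-active enzymes (CAZY), its predicted transcription factors, 47 regulator orthologs, and the Gene Ontology (GO) terms it tabulated for genes up in Δclr1 or Δclr2. The study picked the GO terms from these same samples, so membership in them is no independent evidence of direction. Each GO list holds only the genes the study gave under that term as up in Δclr1 or Δclr2. Shares of members in these lists were favoured by that choice and are not shares of the whole term. None of the 47 regulator orthologs is a member. The lists as a whole, with their members, held genes called in both directions between t1 and t4, and over all tested genes 17.5% to 22.1% were called in each direction per strain. Of 304 tested transcription factor genes 75 were higher and 34 lower at t4 in Δclr1, 55 and 50 in Δclr2, 41 and 52 in Δclr4 and 56 and 39 in the parental strain. Of 23 heme-binding genes 6 were higher and 7 lower in Δclr1, 9 and 4 in Δclr2, 2 and 10 in Δclr4 and 1 and 8 in the parental strain. Of 14 pyridoxal phosphate genes 3 were higher and 6 lower in Δclr1, 4 and 4 in Δclr2, 1 and 6 in Δclr4 and 2 and 6 in the parental strain (edgeR, described with the t4 against t1 test below).

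Of 390 CAZY genes 5 are members, where 139 of all 9292 genes are, namely 2 of 83 glycosyltransferases, 2 of 65 hemicellulases and 1 of 123 genes classed as other. MYCTH_2309843 belongs to glycosyltransferase family 35, the family of glycogen phosphorylases, which release glucose 1-phosphate from stored glycogen. In Δclr1 it had 100.4 and 89.9 CPM at SS, 373 and 382 at 0.5 h, 594 and 711 at 1 h, 466 and 579.8 at 2 h and 324 and 419 at 4 h. In Δclr2 it had 49.3 and 59.9 CPM at SS, 219 and 246 at 0.5 h, 322 and 331 at 1 h, 215 and 301 at 2 h and 223 and 172 at 4 h. It was at its highest at t2 in both strains. In Δclr4 it had 117 and 114 CPM at SS and 163 and 217 at t3, its highest time, and in the parental strain it did not exceed 97.6 CPM in any library.

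MYCTH_114497, of glycoside hydrolase family 2 and annotated as a galactosidase or glucuronidase, was high in ex and after the spike. It had 107 and 111 CPM in ex, 16.8 and 17.8 at SS and 439 and 610.4 at t2 in Δclr1. In Δclr2 the values were 68.9 and 73.2 in ex, 12.4 and 12.9 at SS and 291 and 220.3 at t3. The parental strain had 52.6 and 52.1 CPM in ex, 16.8 and 18.1 at SS and at most 43.3 after the spike, so SS lay below ex in each of these strains. MYCTH_2294074, of family 79, had 69.7 and 83.9 CPM at SS and 452 and 471 at t1 in Δclr1, and MYCTH_92310, of glycosyltransferase family 8, had 38.4 and 30.6 at SS and 129 and 170.4 at t1.

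MYCTH_2127683, of glycoside hydrolase family 43 with a family 42 carbohydrate-binding module and placed among exoarabinases and arabinofuranosidases, was a short pulse. In Δclr1 it had 7.65 and 11.1 CPM at SS, 319 and 621 at t1, 42.3 and 75.8 at t2 and 30.9 and 32.4 at t4. In the parental strain it had 6.67 and 7.65 CPM at SS, 6.68 and 20.6 at t1, 28.0 and 24.2 at t2 and 2.41 and 2.65 at t4. The pulse was present in both strains, higher in Δclr1, with the highest mean at t1 there and at t2 in the parental strain. Parental R2 was already near its t2 level at t1. These strains come from different centres, so strain and centre cannot be told apart. In Δclr4, from the centre of Δclr1, counts were 344 and 237 at t1 and 409 and 859 at t2, in libraries that were larger at t1.

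Of the 23 genes that the study listed under heme binding as up in Δclr1 or Δclr2, 6 are members. Over all genes 139 of 9292 are, but these 23 were chosen for a rise in the same strains. MYCTH_2120753 (chromosome 6, 1725124 to 1727002) had 39.98 and 66.8 CPM at SS, 147 and 178 at 0.5 h, 215 and 245 at 1 h, 590.0 and 483 at 2 h and 593 and 752 at 4 h in Δclr1. In Δclr2 it had 19.5 and 21.2 CPM at SS, 53.6 and 49.2 at 0.5 h, 111 and 103 at 1 h, 325 and 296 at 2 h and 504 and 333 at 4 h. Its mean was highest at t4 in both strains, and its parental libraries stayed at 15.7 to 38.2 CPM from SS to t4. MYCTH_2294752 was likewise highest at t4 in both, and MYCTH_2305436 at t3. MYCTH_2303249 peaked at t2, with 366 and 211 CPM in Δclr1, against 4.37 and 3.46 in Δclr4, and with 88.1 and 133 in Δclr2, against 6.81 and 4.03 in the parental strain.

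MYCTH_2303088 (chromosome 3, 27620 to 30162), with heme binding and catalase activity, had 764 and 501 CPM at SS, 2486 and 2486 at t1, 2809.9 and 2561 at t2 and 1499 and 1658 at t4 in Δclr1. The Δclr2 libraries had 147 and 227 CPM at SS, 408 and 634 at t1, 1117 and 1100.4 at t2 and 576 and 545 at t4. At t2 it was also above SS in the other strains, with 1305 and 1434 CPM in Δclr4, where SS was 735 and 578, and 481 and 609 in the parental strain, where SS was 228 and 222.

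**Figure D2:**
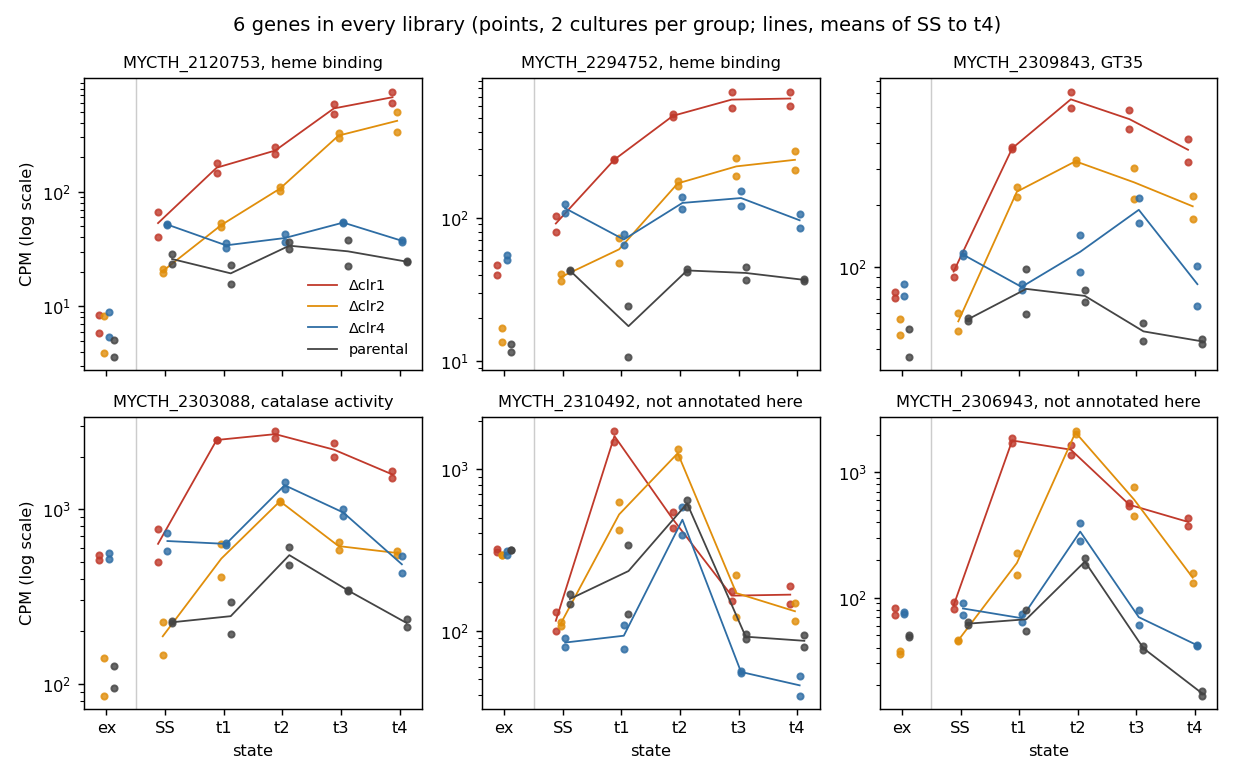
CPM on a log scale of 6 members in every library, with points for the 2 cultures of a group and lines through the means of SS to t4. The heme-binding genes MYCTH_2120753 and MYCTH_2294752 climb to t4 in Δclr1 and Δclr2, MYCTH_2309843 and MYCTH_2303088 peak at t1 to t3, and MYCTH_2310492 and MYCTH_2306943 are pulses that reach 582 to 644 and 182 to 206 CPM at t2 in the parental strain.

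Of 14 genes listed under pyridoxal phosphate binding as up in Δclr1 or Δclr2, 4 are members, MYCTH_2309843 included. MYCTH_2304900 had 169 and 108 CPM at SS, 1516 and 1589.9 at t1 and 357 and 361 at t4 in Δclr1. MYCTH_2303566 had 364 and 232 CPM at SS, 1865 and 2144 at t1 and 800.0 and 681 at t4 in the same strain. Both were highest at t1 in Δclr1 and declined by t4, where they were still above SS. MYCTH_2303566 was also high at t1 in the parental strain, with 547 and 474 CPM against 166 and 166 at SS. Other listed members were MYCTH_2305433 (transmembrane transport), MYCTH_2301878 (lipid metabolic process and hydrolase activity), MYCTH_78277 (hydrolase activity and nitrogen compound metabolic process), MYCTH_56455 and MYCTH_81347 (oxidoreductase activity), MYCTH_94652 (phosphopantetheine binding) and MYCTH_112227 (aldehyde-lyase activity). Of 41 genes listed under integral component of membrane as up in Δclr1 or Δclr2, 4 are members, MYCTH_2112081, MYCTH_2091985, MYCTH_2312624 and MYCTH_2295798. MYCTH_2295798 was low, with 0.273 and 1.37 CPM at SS in Δclr1.

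Of 312 predicted transcription factors, 5 are members. MYCTH_2310773, with a C2H2 zinc finger, had 2.82 and 1.61 CPM at SS, 99.5 and 100.1 at t1, 32.8 and 31.5 at t2 and 29.0 and 16.8 at t4 in Δclr1. Its Δclr2 values were 2.71 and 4.66 CPM at SS, 25.5 and 53.7 at t1, 209 and 180.5 at t2 and 32.6 and 42.4 at t4. Its highest time was 0.5 h in Δclr1 and 1 h in Δclr2, and the parental strain had a smaller peak of 38.2 and 23.4 CPM at t2. In Δclr4 it also rose at t2, with 180 and 237 counts against 26 and 15 at SS. MYCTH_2308423, with a fungal transcription factor domain, had 55.1 and 36.6 CPM at SS and 246 and 237 at t4 in Δclr1, against 43.1 and 37.6 at SS and 20.9 and 16.3 at t4 in Δclr4. It ended above SS without clr1 and below SS without clr4. The parental strain also ended below SS, with 163 and 216 counts at t4 against 276 and 289 at SS. Δclr2 ended above SS, with 986 and 1005 counts against 240 and 144. MYCTH_106527, with a response regulator domain, MYCTH_2111519, with a C2H2 zinc finger, and MYCTH_2305582, with a zinc cluster, are the others, and MYCTH_2111519 was low throughout, at 0.728 to 22.2 CPM in Δclr1.

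The rule used the mean of the 4 times against SS, which includes t1 and t4. It did not set the change between t4 and t1, but it could favour some courses. Members with a large early rise in Δclr4 or the parental strain could meet the limit of 0.5 only with lower levels at other times. The counts of members called are thus not independent of the rule, and how far it shaped them was not tested. The change between t4 and t1 was tested with the quasi-likelihood test of edgeR over 8565 genes, with adjusted p under 0.05 as the call. The fitted change from 0.5 to 4 h was positive in 92 of 139 members in Δclr1, 99 in Δclr2, 36 in Δclr4 and 32 in the parental strain, and fewer passed the test. In Δclr1 64 members were higher at t4 than at t1 (22.1% of all tested genes were) and 29 were lower (20%), with a median log2 fold change of 0.44 against 0.06 for all genes. In Δclr2 67 were higher (19.4%) and 21 lower (21%), with a median of 0.66 against 0.01. The members lower were 20.9% of the 139 in Δclr1 and 15.1% in Δclr2, near or under the share of all genes. Of these members 53 were higher and 16 lower in both strains. The share of all tested genes called in both strains was not computed.

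In Δclr4 5 members were higher at t4 than at t1 (18.4% of all tested genes) and 40 lower (17.5%), with a median of -0.44 against -0.03 for all genes. In the parental strain 3 were higher (19.4%) and 62 lower (17.5%), with a median of -0.68 against 0.00. Of these members 34 were lower in both strains, and the share over all genes was not computed. The counts moved when single libraries were left out: members lower in the parental strain were 39 without R2 at t1, members lower in Δclr4 were 26 without R1 at t4, and members lower in Δclr2 were 9 without R2 at t1. With the culture as a block, members higher were 8 in Δclr4 and 6 in the parental strain, and the 5 in Δclr4 were 1 without R1 at t1 or without R2 at t4.

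**Figure D3:**
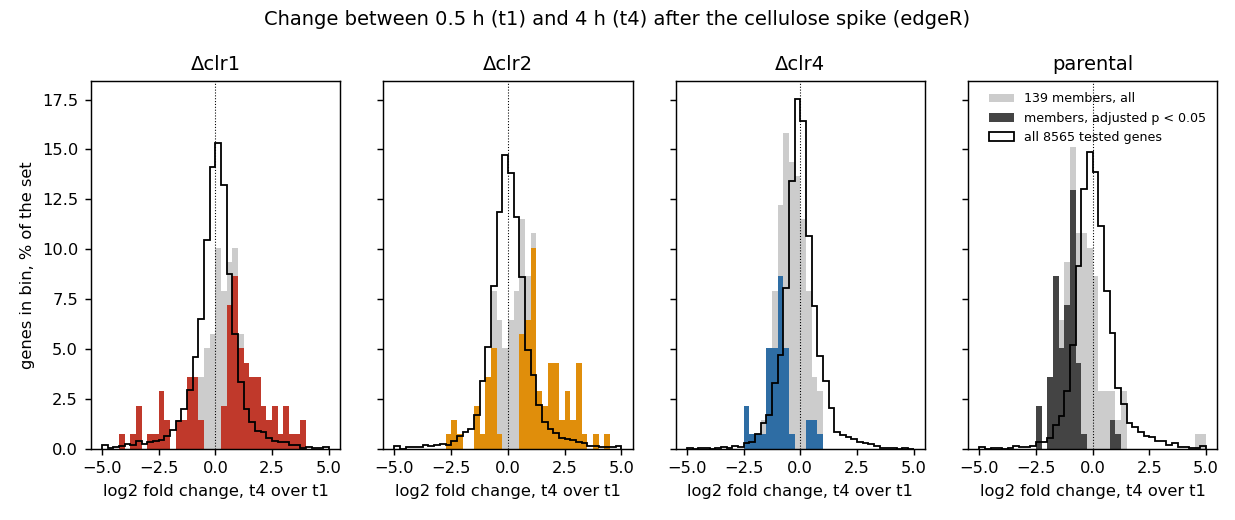
Log2 fold change of t4 over t1 from edgeR in each strain, as a share of the 139 members (grey, coloured where the adjusted p is under 0.05) and of the 8565 tested genes (black line, values beyond 5 placed in the outer bins). The members lie mostly to the right of 0 in Δclr1 and Δclr2 (medians 0.44 and 0.66) and to the left in Δclr4 and the parental strain (medians -0.44 and -0.68).

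The members with the largest increases between t1 and t4 were the same in both deletion strains, and had at most 12.4 CPM in any t1 library of these strains. MYCTH_2309542 had 46.3 and 33.9 CPM at t4 against 2.43 and 2.48 at t1 in Δclr1, a log2 fold change of 3.78 ± 0.61 (SE, edgeR adjusted p = 9.7e-06). Without clr2 it had 40.9 and 14.5 CPM at t4 against 1.37 and 1.72 at t1 (3.84 ± 0.72, edgeR adjusted p = 8.6e-05). MYCTH_103671 rose by 3.89 ± 0.63 in Δclr1 and by 4.35 ± 0.92 in Δclr2, where 1 t1 library had 0 counts and the value ranged from 3.45 to 9.17 with single libraries left out. MYCTH_2065222, described above, rose by 3.74 ± 0.55 and 3.49 ± 0.60. MYCTH_2120753, the heme-binding gene, rose by 1.80 ± 0.23 in Δclr1 and by 2.74 ± 0.25 in Δclr2 (edgeR adjusted p = 1.7e-07 and 2.9e-10).

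The largest decreases in the deletion strains were in genes highest at t1 or t2, while other called decreases were small, as for MYCTH_106527 in Δclr1, with 169.8 and 202 CPM at t4 against 251 and 384 at t1 and 64.1 and 67.3 at SS. MYCTH_2310492 (chromosome 6, 2097543 to 2099329) had 189 and 145 CPM at t4 against 1475 and 1729.8 at t1 in Δclr1, a log2 fold change of -3.50 ± 0.32 (edgeR adjusted p = 2.9e-10). The values in Δclr2 were 115 and 149 CPM at t4 against 420.3 and 629 at t1 (-2.28 ± 0.30, edgeR adjusted p = 5e-07), with its highest level of 1325 and 1185 CPM at t2. MYCTH_2127683 and MYCTH_2308476 fell by 4.15 and 3.47 in Δclr1, and MYCTH_2308476 and MYCTH_2296305 fell by 2.56 and 2.44 in Δclr2.

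In Δclr4 and the parental strain MYCTH_2303566, the pyridoxal phosphate enzyme with a pulse at t1, fell most clearly. It had 120.4 and 101 CPM at t4 against 525 and 648 at t1 in Δclr4 (-2.28 ± 0.23, edgeR adjusted p = 3.2e-09) and 96.3 and 85.2 against 547 and 474 in the parental strain (-2.36 ± 0.23, edgeR adjusted p = 2.6e-09). MYCTH_2307339 fell by 2.31 in Δclr4, and MYCTH_2127683 by 2.45 in Δclr4 and 2.28 in the parental strain, where the adjusted p of 0.013 became 0.34 without R2 at t1, 0.076 without R1 at t4 and 0.062 without R2 at t4. MYCTH_2297214 fell by 2.25 in the parental strain at 0.483 to 7.14 CPM, and its adjusted p of 0.039 became 0.24 without R2 at t1 or R1 at t4. Few members were higher at t4 than at t1 in these strains. MYCTH_2302191 had 43.3 and 44.2 CPM at t4 against 26.9 and 26.6 at t1 in Δclr4, and 84.5 and 97.3 against 45.9 and 66.2 in the parental strain, a log2 fold change of 0.84 in each (edgeR adjusted p = 0.00022 and 0.00029). MYCTH_2302191 overlaps another gene in the annotation. MYCTH_2294752, a heme-binding gene, rose by 1.21 in the parental strain and by 0.57 in Δclr4, and the call in Δclr4 was lost without R1 at t1 or R2 at t4 (adjusted p of 0.23 and 0.24). MYCTH_2298183 in Δclr4 (0.58) and MYCTH_2298626 in the parental strain (0.84) were called too, and each call was lost when single libraries were left out.

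Because many members peaked after t1, t4 was also set against t2, a contrast added after the data had been seen. By this measure more members were lower than higher in every strain. Of the 4 times, t2 was the highest for 50 to 52 members per strain and t4 for 2 to 20. The choice of t2 thus favoured lower calls, so the counts and p-values of this contrast are a description. In Δclr4 86 members were lower at t4 than at t2 (22% of all tested genes) and 0 higher (20.7%), where 0 members were higher at an unadjusted p under 0.05 and 0 with DESeq2. In the parental strain 78 were lower (18.2%) and 1, MYCTH_41366, was higher (19%), a call that was lost under DESeq2. In Δclr1 47 were lower (14.6%) and 8 higher (16.5%), and in Δclr2 60 were lower (17.2%) and 15 higher (16.9%). The median log2 fold change was -0.39 in Δclr1, -0.48 in Δclr2, -0.83 in Δclr4 and -0.95 in the parental strain.

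The largest declines after t2 included MYCTH_2306943 (chromosome 4, 2676923 to 2678475). The Δclr2 libraries had 158 and 131 CPM at t4 against 2148 and 2012 at t2 (-4.12 ± 0.23, edgeR adjusted p = 8.8e-15), and in the parental strain 16.6 and 18.0 CPM against 206 and 182 (-3.49 ± 0.23, edgeR adjusted p = 9.4e-13). The cultures of t4 and t2 did not overlap in either strain. MYCTH_2310773, the C2H2 zinc finger gene, had 0.675 and 0.398 CPM at t4 against 10.8 and 27.3 at t2 in Δclr4 (-5.02 ± 0.55, edgeR adjusted p = 1.2e-08). MYCTH_2307339 fell by 3.68 in Δclr4 and by 3.31 in the parental strain, and MYCTH_2303249 by 2.66 in Δclr1. MYCTH_2309586 was among the members that went against this, with 53.2 and 61.3 CPM at t4 against 5.76 and 6.92 at t2 in Δclr2 (2.90 ± 0.47, edgeR adjusted p = 1.2e-05) and 37.4 and 30.5 against 7.18 and 4.63 in Δclr1 (2.44 ± 0.46, edgeR adjusted p = 0.00012).

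The difference of the t4 against t1 change between strains was tested itself. The rule set Δclr1 and Δclr2 apart from Δclr4 and the parental strain by means that include t1 and t4. The counts of members called between such strains are thus not independent of the rule. For Δclr1 minus Δclr4, both from GenomeScan, the difference was positive and called in 65 members (15.6% of all tested genes) and negative and called in 12 (16.7%). For Δclr2 minus the parental strain, both from Microsynth, it was positive in 64 (7.02%) and negative in 1 (11.3%). Of the positive calls 45 were shared, and the share over all genes was not computed. The median difference was 0.77 and 1.16, and without R2 of the parental strain at t1 the 64 were 42. MYCTH_2308423, the fungal transcription factor domain gene, was among the clearest: 246 and 237 CPM at t4 against 135 and 134 at t1 in Δclr1, and 20.9 and 16.3 against 92.9 and 63.3 in Δclr4, a difference of 2.53 ± 0.28 (edgeR adjusted p = 4e-08). For Δclr2 minus the parental strain its difference was 1.48 ± 0.29 (edgeR adjusted p = 0.00034).

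The largest positive differences were MYCTH_2309542 (4.92 ± 0.91), MYCTH_2065222 (4.29 ± 0.89) and MYCTH_103671 (3.90 ± 1.06) for Δclr1 minus Δclr4, and MYCTH_2297214 (5.45 ± 1.17), MYCTH_51515 (4.55 ± 0.86) and MYCTH_2309542 (3.97 ± 1.35) for Δclr2 minus the parental strain, the last with an adjusted p of 0.039 that was lost when single libraries were left out. All were low in the strains they were set against, at 6 to 66 counts per t1 or t4 library in Δclr4 for the members named first, and at 2 to 11 counts for MYCTH_2309542, 3 to 25 for MYCTH_2297214 and 6 to 11 for MYCTH_51515 in the t1 and t4 libraries of the parental strain, so these differences rest on few reads. The largest negative ones for Δclr1 minus Δclr4 were MYCTH_2308476 (-2.92 ± 0.53), MYCTH_2310492 (-2.62 ± 0.42) and MYCTH_2297849 (-2.45 ± 0.50). In each the level of Δclr1 was high at t1 and had declined by t4. The single negative call for Δclr2 minus the parental strain, MYCTH_2308476 (-1.80 ± 0.57, adjusted p = 0.026), was lost when single libraries were left out.

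Between the deletion strains themselves, Δclr1 minus Δclr2 was negative and called in 16 members (3.02% of all tested genes) and positive in 1 (1.89%). These strains were sequenced at different centres, and for changes within strains the centre and the strain cannot be told apart. The 16 were 5 without R1 of Δclr2 at t1. MYCTH_2295414 (chromosome 1, 2529729 to 2530655) had 472 and 493 CPM at t4 against 628 and 748 at t1 in Δclr1, and 341 and 419.8 against 70.7 and 135 in Δclr2, a difference of -2.35 ± 0.35 (edgeR adjusted p = 8.1e-05). In both strains t2 was the highest time, with 1135 and 1138 CPM in Δclr1 and 1088 and 1228 in Δclr2, so t1 was much closer to t2 in Δclr1. Its neighbour MYCTH_41800 had the same order (-2.17 ± 0.42), and MYCTH_2297849 followed (-1.98 ± 0.52). The positive call, MYCTH_2305819 (1.19 ± 0.36, adjusted p = 0.049), was lost under DESeq2 and its size factors, without the filter, in a model of these strains alone, and without 7 of 8 single libraries (adjusted p of 0.054 to 0.27).

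Grouped by their calls, 53 members were higher at t4 than t1 in both deletion strains, 16 were lower in both, and 70 were the rest. The calls of members lower in Δclr2 depended on single libraries, as given above, and so does the group of 16. The 16 early members also had a pulse where clr1 and clr2 are present: 13 of 16 stood 1 or more above SS at t2 in Δclr4 and 13 of 16 in the parental strain, where 0 and 1 of the 53 late members did. Their median difference to SS was 3.56 at t1 in Δclr1, 3.15 at t2 in Δclr2, 1.68 at t2 in Δclr4 and 1.43 at t2 in the parental strain. By t4 it was 1.19, 1.08, -0.89 and -0.88. The late members had medians of 3.01 and 3.10 at t3 in Δclr1 and Δclr2, and 0.62 and 0.43 at t3 in Δclr4 and the parental strain. Of all 7661 genes 7.60% in Δclr4 and 7.70% in the parental strain stood 1 or more above SS at t2. The groups were made from the t4 and t1 values of Δclr1 and Δclr2, and the rule for members used the SS to t4 values of all strains, so these values are a description and no test was made. The early group holds MYCTH_2306943, MYCTH_2306101, MYCTH_2127683, MYCTH_2304900, MYCTH_2303566, MYCTH_2296305, MYCTH_2297849, MYCTH_2308476, MYCTH_2310492, MYCTH_2294074, MYCTH_106527 and the heme-binding MYCTH_2302782 among others.

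**Figure D4:**
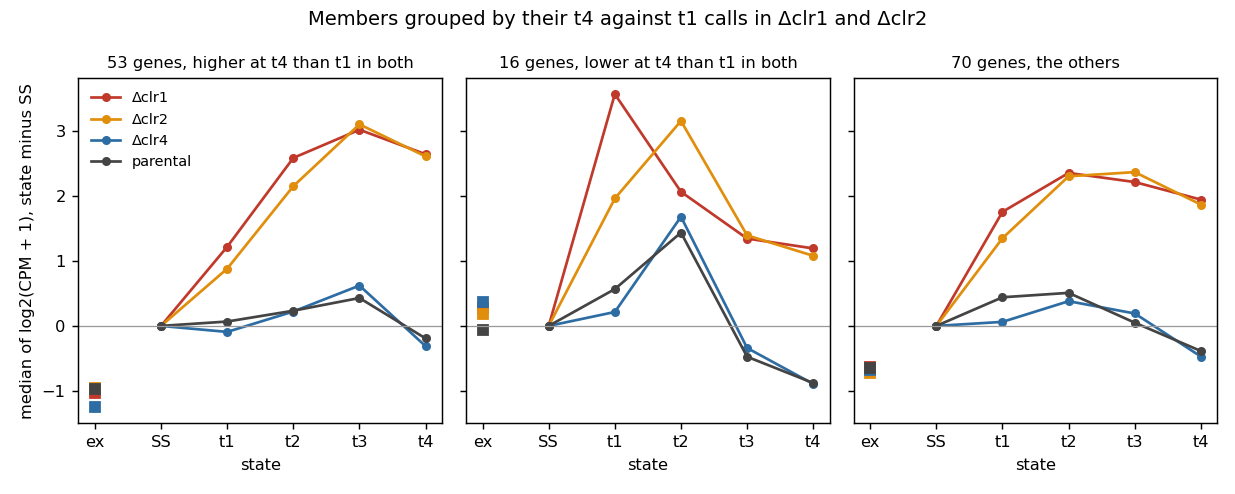
Median difference to SS of log2(CPM + 1) in each strain, with squares for ex and lines from SS to t4, for 53 members higher at t4 than t1 in both Δclr1 and Δclr2, 16 lower in both, and the other 70. The 16 peak at t1 in Δclr1 and at t2 in the other strains (1.43 in the parental strain), while the 53 peak at t3 and lie about 1 below SS in ex.

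The exponential libraries were not used by the rule. No member was called there between strains of a centre. For Δclr1 against Δclr4 in ex, 0 of 139 members were called in either direction by edgeR (0.0234% of all genes were higher and 0.0117% lower), 0 with DESeq2, and at an unadjusted p under 0.05 0 were higher and 3 lower. For Δclr2 against the parental strain 0 members were called by edgeR (0% and 0%) and 0 with DESeq2, and 1 was higher and 1 lower at an unadjusted p under 0.05. The median log2 fold change of the members was -0.03 and -0.01. A missed threshold with 2 cultures per group does not show equal levels, and fitted values of single members ranged from -2.01 to 2.12 and from -4.24 to 4.65.

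Most members were lower in ex than at SS in every strain, which is a description because SS entered the rule. The median difference of ex to SS was -0.73 in Δclr1, -0.74 in Δclr2, -0.79 in Δclr4 and -0.68 in the parental strain, against -0.14, -0.13, -0.17 and -0.24 for all 7661 genes. In 96 of 139 members ex was below SS in all 4 strains, and in 38 by 1 or more on the log2 scale in all 4. In 16 members ex was above SS in all 4, and by 1 or more in MYCTH_114497, MYCTH_2115983, MYCTH_2314489 and MYCTH_2296305, of which MYCTH_2115983 and MYCTH_2314489 were named after their values were seen. MYCTH_2314489 overlaps another annotated gene. MYCTH_2296305 had 673 and 762 CPM in ex and 123 and 87.7 at SS in Δclr1, and 712 and 636 CPM in ex and 144 and 149.9 at SS in the parental strain. MYCTH_2308423 had 6.54 and 6.53 CPM in ex and 55.1 and 36.6 at SS in Δclr1, the opposite order. The late group lay lower in ex, with medians of -1.03 in Δclr1 and -0.96 in the parental strain, while the early group had 0.28 and -0.06.

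The members lie on all 7 chromosomes, with 44 on chromosome 1 (of 2761 annotated genes), 20 on chromosome 2 (1451), 18 on chromosome 3 (1231), 19 on chromosome 4 (1101), 21 on chromosome 5 (1017), 9 on chromosome 6 (809) and 8 on chromosome 7 (922). In 10 places 2 members are next to each other in the annotation, which covers 20 members. MYCTH_41800 and MYCTH_2295414 are 205 bases apart on chromosome 1 and had similar levels at t2 in Δclr1, with 925 and 1079 CPM and 1135 and 1138 CPM. In Δclr4 they differed, with log2 fold changes of t4 over t1 of -1.03 for MYCTH_41800 and 0.21 for MYCTH_2295414 (edgeR adjusted p = 0.012 and 0.56). MYCTH_2309585 (4122400 to 4123407) and MYCTH_2309586 (4123520 to 4125127) are 112 bases apart on chromosome 5, and both were late, with 17.8 and 18.4 CPM and 37.4 and 30.5 CPM at t4 in Δclr1. MYCTH_2127683 and MYCTH_2306101, 1182 bases apart on chromosome 4, were both early, with 319 and 621 CPM and 2119 and 2907 CPM at t1 in Δclr1. MYCTH_2095534 and MYCTH_2309084 are 211 bases apart on chromosome 5 and peaked together at t2, with 2103 and 2082 CPM and 475 and 429 CPM in Δclr2. MYCTH_108115 and MYCTH_2306943 are neighbours of unlike size of change, with 317 and 277 CPM and 1372 and 1659.9 CPM at t2 in Δclr1 against 87.9 and 76.0 CPM and 91.9 and 81.7 CPM at SS. The other pairs are MYCTH_2031594 with MYCTH_2296063, MYCTH_2298494 with MYCTH_2298497, MYCTH_2300093 with MYCTH_2300094, MYCTH_2302780 with MYCTH_2302782 and MYCTH_2308147 with MYCTH_2308148. Whether counting used strand is not given in the sources used here, so reads of close or overlapping genes cannot be told apart, and 8 members overlap an annotated gene, MYCTH_2302191 and MYCTH_112227 among them.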

How the data were processed

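RNA of whole biomass was sequenced as poly(A) libraries. Reads were checked with FastQC, trimmed with BBTools where needed and mapped with STAR to assembly ASM22609v1 by the authors. Versions and the counting program are not given in the sources used here. The deposited counts are raw reads per gene, and only they were used. Deposited tables of counts divided by DESeq2 size factors, and of the authors' own comparisons with DESeq2 (fold changes and p-values), were not used. The 49 sample entries are 48 libraries: Δclr4 R2 at t4 ran on 2 flow cells that share 1 column and count once. Replicates differed by more than sampling noise (chi-square per degree of freedom 5.21 to 71.1).

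Members followed the rule given above. Members and gene lists were chosen with earlier results of these data known. Tests used edgeR 4.0.16 in R 4.3.3: filterByExpr at a minimum count of 10 (727 genes removed), TMM, a quasi-likelihood model with a coefficient for each of 24 groups (24 residual degrees of freedom, biological coefficient of variation 0.151) and Benjamini-Hochberg adjustment over 8565 genes. It was tested on simulated data. Levels are CPM of the library total, and fold changes come from the model.

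Libraries of a strain with the same R number came from the same bioreactor. Their residuals correlated with a median r of 0.217 in Δclr1, 0.085 in Δclr2, 0.248 in Δclr4 and 0.040 in the parental strain over 15 pairs of states each. Alternatives were a culture block, DESeq2 1.42.0, its size factors in edgeR, no filter, a model of only the strains compared, calls only past an absolute log2 fold change of 1, each library left out, and other settings of the rule. Named genes were the 10 with the highest summed m, the 5 with the highest group mean, up to 3 per list, up to 3 called in each direction per contrast, those nearest the thresholds, neighbouring members and the deleted genes. Product words and promoter sequences were not used here. Figures were drawn with matplotlib 3.10.9.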

Additional observations from a re-analysis of the deposited data

Results flagged for a closer look

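The change from t1 to t4 differed between strains in some members by the test of the difference itself (edgeR, adjusted p under 0.05). Values at t1 and t4 entered the rule, which set Δclr1 and Δclr2 apart from Δclr4 and the parental strain. Counts of members called between such strains are thus not independent of the rule. For Δclr1 minus Δclr4 it was positive in 65 members (15.6% of all tested genes) and negative in 12 (16.7%, above the members' 8.63%), led by MYCTH_2309542 (4.92) and MYCTH_2308476 (-2.92). For Δclr2 minus the parental strain it was positive in 64 (7.02%), or 42 without R2 of the parental strain at t1, led by MYCTH_2297214 (5.45). It was negative in 1 (11.3%), MYCTH_2308476 (-1.80), a call lost when single libraries were left out. For Δclr1 minus Δclr2, sequenced at different centres, it was negative in 16 (3.02%), or 5 without R1 of Δclr2 at t1, led by MYCTH_2295414 (-2.35). It was positive in 1 (1.89%), MYCTH_2305819 (1.19), a call lost under DESeq2, without the filter and without 7 of 8 single libraries.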

How the results depend on the processing

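No result changed direction under any alternative that was run. Requiring an absolute log2 fold change of at least 1 left, for t4 against t1, 39 members higher in Δclr1, 8 lower in Δclr2, 0 higher and 20 lower in Δclr4, and 1 higher and 37 lower in the parental strain, and for t4 against t2 27 lower in Δclr1, 56 lower in Δclr4 and 0 higher in the parental strain, as fewer genes can pass. With the culture as a replicate block, which pairs libraries of 1 bioreactor, members higher at t4 than t1 were 8 in Δclr4 and 6 in the parental strain, and no other count of members moved by over 1.5 times. A model of the compared strains alone gave 7 in the parental strain. The 1 member higher at t4 than t2 in the parental strain was 0 with DESeq2 and with its size factors, and the 1 positive difference of Δclr1 minus Δclr2 was 0 with either, without the filter and with these strains alone. The cause was not tested. The rule gave 64 genes on TMM-scaled libraries and 63 on fitted responses.

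With single libraries left out, members higher and lower at t4 than t1 were 50 to 57 and 27 to 28 in Δclr1, 48 to 67 and 9 to 21 in Δclr2, 1 to 5 and 26 to 33 in Δclr4, and 2 to 3 and 39 to 62 in the parental strain. At t4 against t2 they were 5 to 10 and 34 to 47 in Δclr1, 6 to 17 and 46 to 59 in Δclr2, 0 to 0 and 63 to 88 in Δclr4, and 0 to 1 and 57 to 70 in the parental strain. Positive and negative differences were 0 to 1 and 5 to 15 for Δclr1 minus Δclr2, 49 to 64 and 10 to 17 for Δclr1 minus Δclr4, and 42 to 65 and 0 to 5 for Δclr2 minus the parental strain. The rule on 1 culture alone gave 94 to 134 genes, of which 78 and 101 are among the 139 members. Each value of a named gene was checked under several alternatives, and 525 of these checks kept the call and 44 lost it. Each group has 2 cultures and each deletion 1 strain, and libraries of Δclr2 and the parental strain were the shallowest.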
